A study of Mus musculus with 12 samples.

Results

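The subunits of the mitochondrial respiratory chain that are encoded in the nucleus were followed at the mRNA level in DC2.4 cells given extracellular vesicles (EVs) from T cells. DC2.4 is a mouse line of immortalised dendritic cells, which take up antigen and present it to T cells. Members were the rows of the deposited count table whose identifier belongs to a protein-coding gene with a symbol starting with Ndufa, Ndufb, Ndufc, Ndufs, Ndufv, Uqcr, Cox4i, Cox5, Cox6, Cox7, Cox8 or Atp5, or named Sdha, Sdhb, Sdhc, Sdhd, Cyc1 or Cycs. This rule uses names only and no measured value. It took 87 of the 42687 identifiers of the table and left out 8 Ndufaf assembly factors and 11 pseudogenes. Complex I had 36 members, complex II 4, complex III with cytochrome c 10, complex IV 20 and complex V, the ATP synthase, 17. Ndufa4 and Ndufa4l2 were placed with complex IV, and the symbol rule also took Atp5s, a coupling factor that is not a structural subunit.

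All 12 libraries came from wild-type DC2.4 cells and formed 4 groups of 3. Controls received phosphate-buffered saline (PBS). The other groups received EVs of activated T cells at 15 µg/mL (ATEV), EVs of non-activated T cells at 30 µg/mL (NTEV), or 15 µg/mL of ATEV first digested with Baseline-ZERO DNase (DNase-ATEV). The labels tie a vesicle DNA amount of 5 µg/mL to these doses, so the ATEV and NTEV groups differ in vesicle dose as well as in vesicle source. Treated cells were collected the next day and plated again, and 3 repeats are given without saying whether the 3 libraries of a group were grown apart. The p-values below therefore measure the spread between these libraries, which may be technical. All groups share 1 cell line, so nothing here extends to primary dendritic cells.

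The respiratory chain lies in the inner mitochondrial membrane. Complex I takes electrons from NADH and complex II takes them from succinate, and both hand them to ubiquinone. Complex III passes them on to cytochrome c, and complex IV, cytochrome c oxidase, gives them to oxygen. Complexes I, III and IV pump protons, and complex V lets the protons flow back to make ATP. Some subunits of complexes I, III, IV and V are encoded by mitochondrial DNA, and these transcripts were not analysed here. In dendritic cells and macrophages, inflammatory activation is known to shift the balance between glycolysis and respiration.

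Library totals ran from 19.4 to 30.4 M counts, and 13261 genes passed the filter on low counts, 81 of them members. Of 17 dendritic cell line markers, Itgax lay at 12.7 to 48.1 CPM (counts scaled to the size of the library), Irf8 at 94.3 to 186 and Ptprc at 242 to 329, while the MHC class II genes H2-Aa and H2-Ab1, Ciita, Flt3 and Irf4 did not pass 0.901 CPM in any library. Their summed level was 1590 to 1690 CPM with PBS, 1980 to 2030 with ATEV, 1610 to 1860 with DNase-ATEV and 1680 to 1880 with NTEV. Of the 12 tested, Itgax, Irf8 and Itgam rose with ATEV against PBS (edgeR adjusted p = 0.0116, 0.0322 and 0.0435), against 3.32% of all genes. Itgax and Itgam also rose with NTEV (0.0185 and 0.048), against 1.7%, and no marker of the 12 was called lower in either. Of 16 T cell markers, Cd3e, Cd8a, Trbc1, Trbc2 and Il2ra had 0 counts in every library, and no other marker but Cd28, Lck and Lat passed 0.199 CPM. The summed level of the 16 was 59.9 to 103 CPM with PBS, 44.8 to 63.9 with ATEV, 55 to 60.7 with DNase-ATEV and 35.9 to 54.5 with NTEV. Cd28, a T cell costimulatory receptor, made up most of it, at 72.2 ± 21.9 CPM with PBS, 40.7 ± 6.15 with ATEV and 34.4 ± 7.43 with NTEV, and fell in both (edgeR adjusted p = 0.0488 and 0.0266). Lck and Lat were not called, and the median log2 fold change of the 3 tested markers for ATEV over PBS was 0.61. Of the 8 macrophage markers all passed the filter, and their summed level was 3220 to 3820 CPM with PBS, 4500 to 7520 with ATEV, 2950 to 3300 with DNase-ATEV and 4910 to 5390 with NTEV. These markers did not move together. Lyz2, a lysozyme, had the largest part in the difference, at 1662 ± 217 CPM with PBS, 3866 ± 1478 with ATEV, 1358 ± 139 with DNase-ATEV and 2853 ± 321 with NTEV, and with Fcgr1 it rose with ATEV against PBS (edgeR adjusted p = 0.0113 and 0.0453). Mrc1, the mannose receptor, fell with ATEV (-1.69 ± 0.39 on the log2 scale) and with NTEV (-1.81 ± 0.39), and the other 5 were not called against PBS. The part of these shifts in the results below was not tested. In bulk RNA, fewer cells of a kind and less RNA per cell cannot be told apart.

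Nuclear respiratory chain genes are known targets of the transcription factors NRF1, GABP (an ETS factor) and YY1. Promoters of 3 members are shown because together they hold a match to each factor's motif and belong to subunits whose values are given below: Ndufs4 and Atp5e, which were among the members highest with ATEV, and Cox6a1, the widely expressed form of a subunit whose muscle form, Cox6a2, varied most. Each covers 250 bases before and 50 after the start of the gene, from RefSeq on build GRCm38.p6, written 5′ to 3′ along the minus strand on which all 3 genes lie. Capitals mark the motif matches.
Ndufs4 (chr13:114388045-114388344): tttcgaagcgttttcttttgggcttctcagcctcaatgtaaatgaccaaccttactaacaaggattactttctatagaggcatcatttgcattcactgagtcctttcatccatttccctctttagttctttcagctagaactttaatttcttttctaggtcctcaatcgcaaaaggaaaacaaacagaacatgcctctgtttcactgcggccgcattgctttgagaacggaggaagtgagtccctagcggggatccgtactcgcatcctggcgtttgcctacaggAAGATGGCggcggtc
Cox6a1 (chr5:115348909-115349208): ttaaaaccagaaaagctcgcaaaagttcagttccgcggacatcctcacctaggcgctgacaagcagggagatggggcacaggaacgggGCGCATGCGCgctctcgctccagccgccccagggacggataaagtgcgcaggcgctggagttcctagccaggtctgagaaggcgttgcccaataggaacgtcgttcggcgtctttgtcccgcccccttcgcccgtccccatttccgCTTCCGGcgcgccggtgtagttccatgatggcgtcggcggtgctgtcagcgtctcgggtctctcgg
Atp5e (chr2:174464052-174464351): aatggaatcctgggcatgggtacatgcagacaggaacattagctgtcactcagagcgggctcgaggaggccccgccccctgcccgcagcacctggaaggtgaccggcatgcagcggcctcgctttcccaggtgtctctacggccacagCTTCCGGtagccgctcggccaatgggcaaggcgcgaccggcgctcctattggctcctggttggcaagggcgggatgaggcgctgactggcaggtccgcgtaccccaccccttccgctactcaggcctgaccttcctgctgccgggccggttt
The motifs were searched by their letters on both strands: the palindromic NRF1 consensus, which is the first run of capitals in the Cox6a1 window, CCGGAAG for ETS factors and AAGATGGC for YY1, none of which contains another. Of 70 members with a promoter in the RefSeq table, 5 (7.14%) held the NRF1 letters, against 1.07% of 27025 genes. The ETS letters stood in 16 (22.86%), against 9.93%, and the YY1 letters in 10 (14.29%), against 3.19%. In the Ndufs4 window the YY1 letters lie after the gene's start. In the Cox6a1 window the NRF1 letters lie upstream of the ETS letters, which appear in both the Cox6a1 and the Atp5e windows as their reverse complement. NRF1 matches were in Ndufa11, Uqcrc1, Cox6a1, Atp5g2 and Atp5k. The median log2 fold change of ATEV over PBS was 0.10 in the 16 tested members with the ETS letters and 0.09 in the 51 without, and 0.11 in the 10 with the YY1 letters and 0.08 in the 57 without. A match describes the letters of the window and says nothing on whether a factor binds there.

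Levels were first compared between subunits per kilobase of coding sequence, since longer mRNAs give more reads, as the mean of 12 libraries (the plot of levels by complex). Complex IV subunits had the highest median, 884 CPM per kb, followed by complex V with 560, complex III with cytochrome c with 436, complex II with 318 and complex I with 196. The ATP synthase catalytic subunit Atp5b stood at 1306 ± 135 CPM per kb (SD, n = 12) and its partner Atp5a1 at 904. Cox7b, a small structural subunit of cytochrome c oxidase, had 1508 ± 480, and Cox6b1, another small subunit, 1468 ± 350. These were the highest 2 means of all members on this scale and do not differ beyond their SDs. Per kb of transcript Cox7b stood at 362 and Cox6b1 at 584, below Atp5b at 1082 and Cox4i1 at 796. Within complex I, Ndufa6 was highest at 361 and Ndufb2 lowest at 22.8, and Ndufb2 shares exon sequence with a gene on its own strand and with Braf on the other, so its reads may be split. Within complex II the membrane anchors Sdhd (656) and Sdhc (415) lay above the flavoprotein Sdha (222) and the iron-sulfur subunit Sdhb (208) on this scale. Sdha and Sdhb do not differ beyond their SDs of 28.2 and 16.5. Per kb of transcript the order changed: Sdhd stayed highest at 254, but Sdhc was lowest, below Sdha at 152 and Sdhb at 154. Uqcr10 was highest in complex III at 900 and the Rieske iron-sulfur protein Uqcrfs1 lowest at 105. The coding length leaves out untranslated regions that also give reads, so a gene with long untranslated regions is set too high on this scale.

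**Figure D1:**
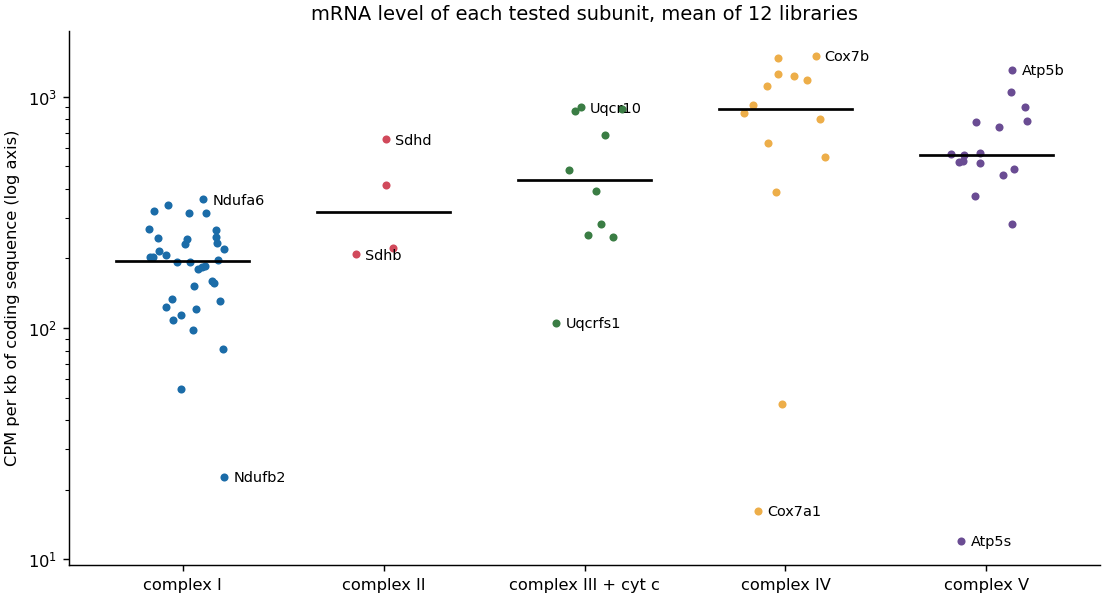
Level of each of the 81 tested members as CPM per kb of coding sequence (log axis), mean of 12 libraries, 1 point per gene, with black lines at the median of each complex and the highest and lowest member named. Complex IV has both the highest 12-library means, Cox7b at 1508 and Cox6b1 at 1468, and some of the lowest, with Cox7a1 at 16.2.

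The isoform choice of cytochrome c oxidase was clear in every group. Cox4i1, the general form of its regulatory subunit 4, had 538, 539 and 628 CPM in the 3 PBS libraries, whereas its lung and hypoxia-linked form Cox4i2 had 29 counts over all 12 libraries and at most 6 in any library. Ndufa4 lay at 232, 229 and 264 CPM with PBS, and its hypoxia-induced relative Ndufa4l2 had 15 counts in all. The testis forms Cox6b2, Cox7b2 and Cox8c and the muscle form Cox8b had 0 of 272938045 counts, which allows up to 0.011 CPM on counting error alone. Cox7a1, the heart and muscle form of subunit 7a, was low at 3.04, 4.37 and 5.13 CPM with PBS, and the general form Cox7a2 had 197, 199 and 208. Per kb of coding sequence their levels were 16.2 and 848 CPM per kb. These 6 genes that did not pass the filter, Cox4i2, Ndufa4l2, Cox6b2, Cox7b2, Cox8b and Cox8c, all belong to complex IV and were not tested.

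The summed level of the respiratory chain differed from PBS by less than 1 SD of the treated group with each vesicle preparation, and the ATEV libraries spread widely. Summed over all members, the level was 17198 ± 356 CPM with PBS, 17220 ± 3628 with ATEV, 16107 ± 1176 with DNase-ATEV and 16198 ± 1444 with NTEV (SD, n = 3 each). The SD with ATEV was about 10 times that with PBS. As a share of all counts in a library, members took 1.68 ± 0.06% with PBS and 1.72 ± 0.30% with ATEV. By complex, the sum with ATEV was 3775 ± 743 CPM for complex I against 3484 ± 107 with PBS, 1064 ± 108 against 1169 ± 8.72 for complex II, 2128 ± 591 against 2068 ± 102 for complex III with cytochrome c, 3682 ± 1145 against 3169.9 ± 224 for complex IV and 6571 ± 1046 against 7306 ± 187 for complex V.

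The spread with ATEV followed the library. ATEV library 3 had the highest of the 3 ATEV values for 72 of 81 members (88.9%, against 36.6% of all tested genes), and ATEV library 1 the lowest for 69 (85.2%, against 37.4%). Relative to the PBS mean, the median member stood at -0.30 in ATEV library 1, 0.07 in library 2 and 0.44 in library 3 on the log2(CPM + 0.5) scale, while the median of all tested genes was at 0.02, 0.02 and 0.01. The DNase-ATEV libraries had member medians of 0.005, -0.15 and -0.16, and the NTEV libraries -0.002, -0.22 and -0.03. ATEV was the group with the widest spread for 61 of 81 members (75.3%), against 33% of all tested genes, and the median within-group SD of a member was 0.39 with ATEV, 0.09 with PBS, 0.12 with DNase-ATEV and 0.16 with NTEV. For all tested genes this median was 0.20 with ATEV, 0.15 with PBS, 0.19 with DNase-ATEV and 0.22 with NTEV. NTEV was the widest group for 34.7% of them. Only 9 members lay above the PBS mean in all 3 ATEV libraries and 13 below it in all 3, whereas 38 lay below it in library 1 and above it in libraries 2 and 3. A group mean for ATEV therefore averages libraries that stand on different sides of PBS.

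**Figure D2:**
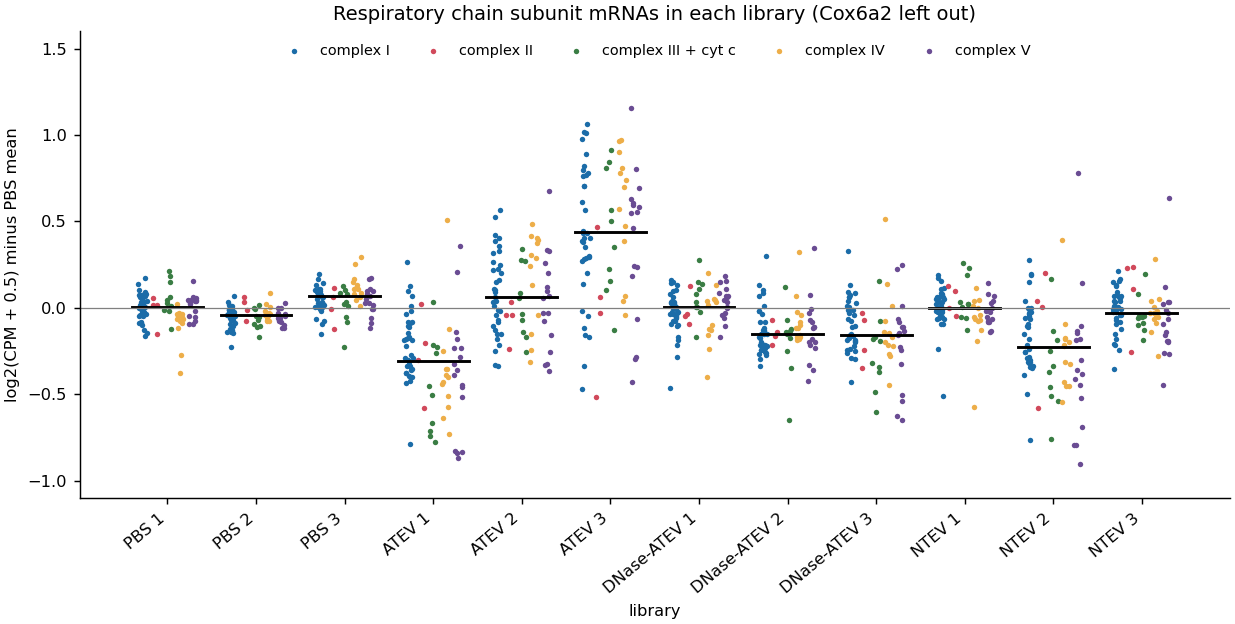
Each tested member except Cox6a2 as log2(CPM + 0.5) minus its mean over the 3 PBS libraries, by library and coloured by complex, with black lines at the library medians. ATEV library 1 lies mostly below PBS (median -0.30) and ATEV library 3 mostly above it (median 0.44), while the other libraries stay closer to 0.

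In ATEV libraries 2 and 3 the deviations moved with transcript length. In ATEV library 3 the 52 members with transcripts under 1 kb had a median of 0.57 and the 29 longer ones 0.16, and across all tested genes the medians were 0.37 and -0.05. In ATEV library 2 the short and long members stood at 0.14 and -0.07, and in library 1 at -0.34 and -0.29. The short and long genes of all tested stood at 0.12 and -0.01 in ATEV library 2, and at -0.01 and 0.02 in library 1. Over the 81 members, Spearman's rho between transcript length and the deviation was -0.47 in ATEV library 2 and -0.51 in library 3, but 0.08 in library 1, as a description of these libraries. This was not limited to ATEV: in the other 9 libraries, whose deviations were smaller, rho ran from -0.455 (PBS library 3) to 0.401 (NTEV library 1). Over all tested genes rho was 0.06, 0 and -0.33 in ATEV libraries 1, 2 and 3, and with coding length it was 0.33 over the members in ATEV library 1. The same measure for the ATEV over PBS fold change was -0.44 in members and -0.12 over 13220 genes. It was 0.06 for DNase-ATEV over PBS and 0.18 for NTEV over PBS in members. ATEV library 3 was also the shallowest library at 19.4 M counts. The part of transcript length and depth in the differences between groups was not tested beyond a fit with the length trend removed from each library, in which the ATEV over PBS median of members was -0.05 in place of 0.09.

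**Figure D3:**
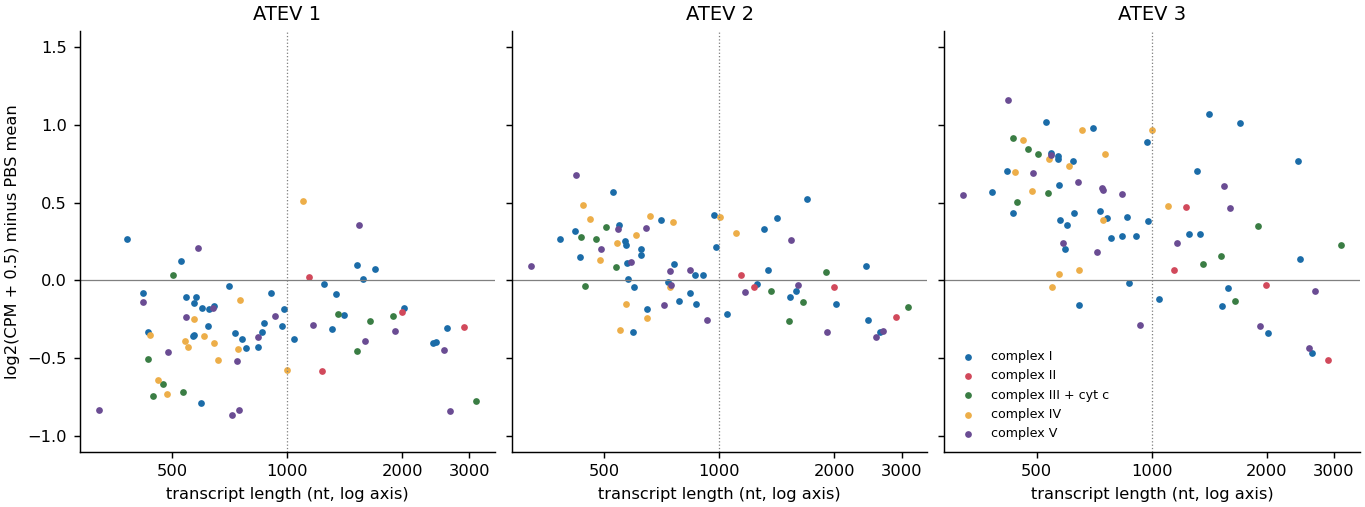
Deviation from the PBS mean, as log2(CPM + 0.5), against transcript length (log axis) for each tested member except Cox6a2 in the 3 ATEV libraries, with a dotted line at 1000 nt. In ATEV library 3 the points fall from left to right (rho -0.51), and in ATEV library 1 they do not (rho 0.08).

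No respiratory chain subunit passed the test in the comparison of ATEV with PBS, which asks how the cells' mRNAs differ after EVs of activated T cells. None was called at an adjusted p under 0.05 with edgeR's quasi-likelihood test and Benjamini-Hochberg adjustment over 13261 genes, where 4.74% of all tested genes were called in either direction (3.32% higher and 1.42% lower). At an unadjusted p under 0.05 there were 13 of 81 members, against 26.8% of all genes. DESeq2, run as an alternative, called 7 members: Ndufa7, Ndufs4 and Cox6a2 higher and Ndufs1, Sdha, Atp5a1 and Atp5b lower. DESeq2 called 11.4% of all genes it tested (6.41% higher and 5.04% lower). Limma-voom called no member and 3.97% of all genes. The median log2 fold change of members was 0.09, against 0.03 over all genes, with 54 members above 0 and 27 below. It was 0.26 without ATEV library 1, when 14 members were called higher (4.69% of all genes in that fit), and -0.08 without ATEV library 3, when none was called. The 95% interval of the fold change lay within 2-fold in either direction for 78 of 81 members and within 1.5-fold for 38. The libraries of the groups did not overlap for 7 members higher with ATEV, against 16.3% of all tested genes, and for 9 lower, against 16.8%. The 7 were Ndufa6, Ndufs4, Sdhb, Cox6a2, Cox7a2l, Atp5g2 and Atp5s, and the 9 were Ndufs1, Ndufs3, Ndufa10, Ndufv3, Sdha, Uqcrc1, Atp5a1, Atp5b and Atp5d.

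**Figure D4:**
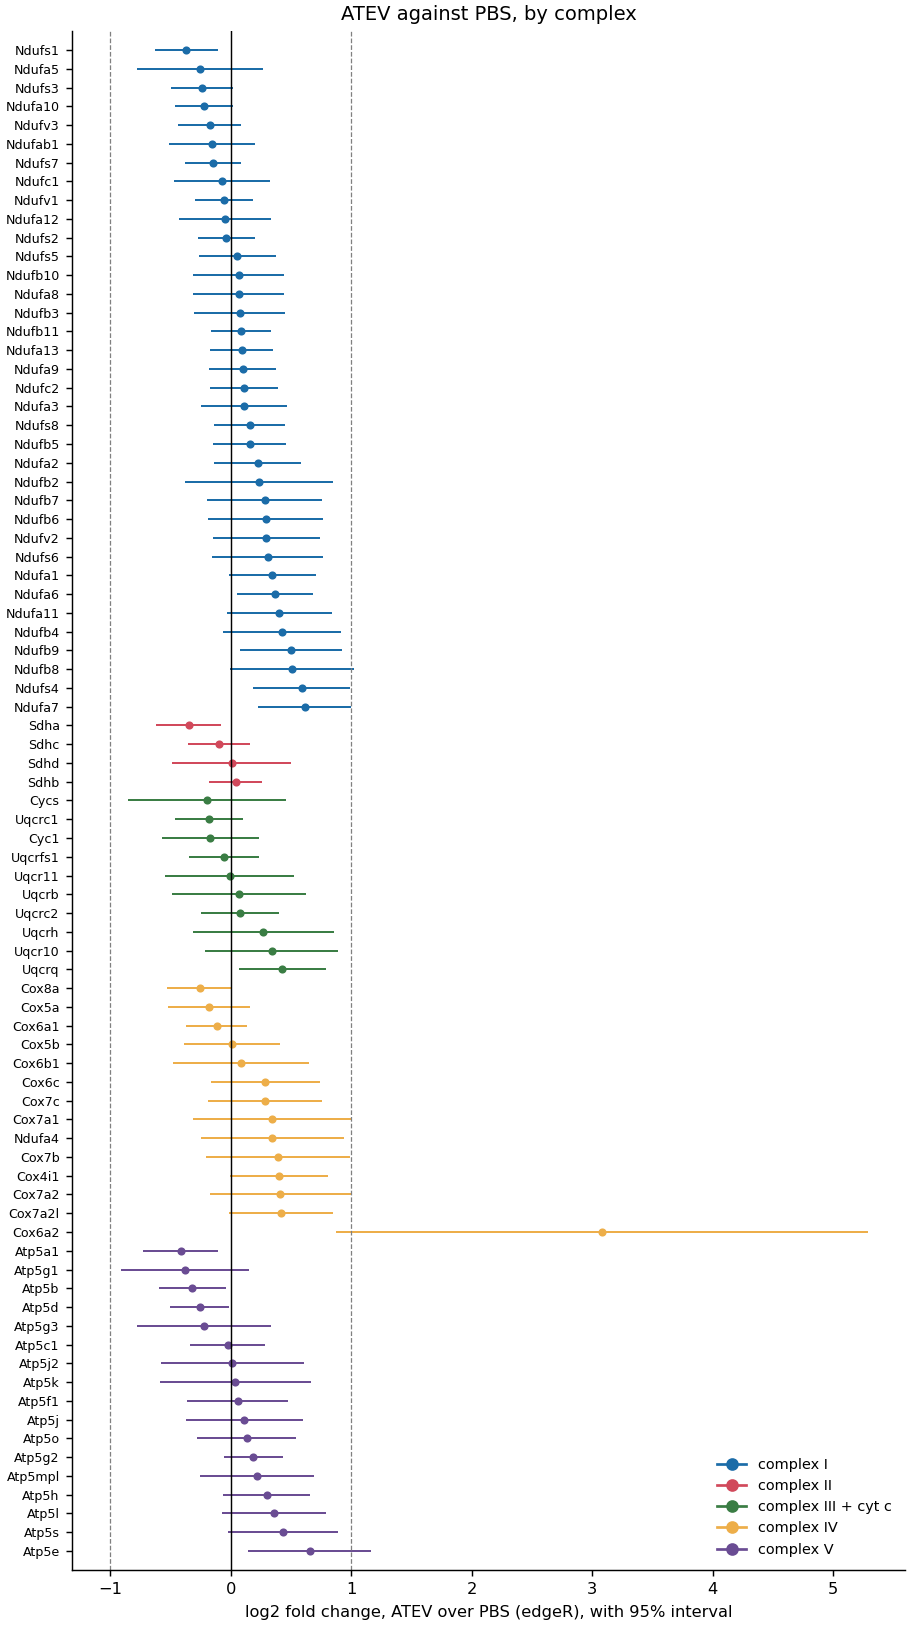
Log2 fold change of ATEV over PBS from edgeR for the 81 tested members, grouped by complex, with bars for the 95% interval, a solid line at 0 and dashed lines at a 2-fold difference. Most intervals cross 0 and 78 lie within 2-fold, and Cox6a2 at 3.08 is the member farthest from 0.

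Subunits that carry the active sites, cofactors or rotor, called core here, had a lower median with ATEV than the accessory ones. This grouping takes the nuclear-encoded catalytic subunits of complex I (among them Ndufs1, Ndufs3, Ndufs7 and Ndufv1), all of complex II, Uqcrfs1 and Cyc1 of complex III, and the head, central stalk and ring subunits of complex V. Its 21 members had a median log2 fold change of -0.09 for ATEV over PBS with 15 below 0, and the 60 accessory members had a median of 0.15 with 48 above 0. In the comparison with DNase-ATEV the medians were -0.02 and 0.27, and with NTEV -0.14 and 0.25. All 14 tested members of complex IV, whose median for ATEV over PBS was 0.32, are among the accessory ones. The contrast is therefore mixed with membership of a complex. Cycs was also counted as accessory, although it carries electrons. The fold change also moved with transcript length, as given above, and the part of the grouping, the complex and the length was not tested. In the edgeR fit to all 12 libraries with the filter and no term for the replicate number, no core member was called in any of the 5 comparisons. DESeq2 called the core members Ndufs1, Sdha, Atp5a1 and Atp5b lower for ATEV against PBS, and 5.04% of all genes lower. Against NTEV it called Ndufs1 and Sdha lower, and 0.782% of all genes. In other edgeR fits, Ndufs1 was called lower for ATEV against PBS with the replicate number as a block (adjusted p = 0.0427), where 4.82% of all genes were called lower. Atp5e was called higher with ATEV against each of the 3 other groups without the filter (adjusted p from 0.0172 to 0.0288) and without ATEV library 1 (from 0.00375 to 0.00469), and Ndufs8 (0.0449) and Ndufv2 (0.0467) against DNase-ATEV without that library. In these 3 comparisons 0.953% to 4% of all genes were called higher without the filter. The share was 2.08% to 4.69% without ATEV library 1, and 3.05% of these against DNase-ATEV. In the edgeR fit to all 12 libraries with the filter and no block, at an unadjusted p under 0.05 there were 6 of the 21 for ATEV against PBS. Of all tested genes 26.8% reached it.

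In complex I, 25 of 36 members lay above 0 for ATEV over PBS, with a median of 0.11. Ndufs1, the largest iron-sulfur subunit and part of the arm that accepts electrons from NADH, had 238, 229 and 216 CPM with PBS, 184, 181 and 164 with ATEV, 249, 215 and 202 with DNase-ATEV and 241, 210.4 and 237 with NTEV. All 3 ATEV libraries were below all 9 others. The difference from PBS was a log2 fold change of -0.37 ± 0.12 (SE, edgeR adjusted p = 0.0856), which missed the threshold. Ndufs4, an accessory subunit needed for a stable NADH-oxidising arm, had 81.6, 83.2 and 88.0 CPM with PBS, 88.5, 121 and 171 with ATEV, 89.0, 73.2 and 84.9 with DNase-ATEV and 83.0, 83.9 and 84.6 with NTEV. Here ATEV library 3 was about 2 times the PBS level while library 1 was beside the highest PBS library. The difference from PBS was a log2 fold change of 0.59 ± 0.18 (SE, edgeR adjusted p = 0.0776).

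Other core subunits of complex I had smaller differences from PBS. Ndufv1, which holds the flavin that takes electrons from NADH, had 158, 144 and 148 CPM with PBS and 161, 139 and 133 with ATEV, and the groups overlapped. Ndufs3, of the peripheral arm, was at 73.5, 66.8 and 70.5 with PBS and 53.9, 60.4 and 64.7 with ATEV, with every ATEV value below the PBS values at a log2 fold change of -0.24 ± 0.12 (SE, edgeR adjusted p = 0.207). Ndufs7, which carries the last iron-sulfur cluster before ubiquinone, was at 101, 86.1 and 94.9 with PBS and 77.4, 84.4 and 92.6 with ATEV. Among accessory subunits, Ndufa9, which sits near the ubiquinone channel, was at 143, 145 and 156 with PBS and 139, 155 and 182 with ATEV. Ndufb8, of the membrane arm, was at 157, 140.5 and 163 with PBS and 132, 203 and 322 with ATEV. Ndufab1, the mitochondrial acyl carrier protein, was at 91.4, 88.8 and 97.3 with PBS and 70.1, 77.5 and 102 with ATEV. All 3 overlapped between the groups, and in Ndufb8 ATEV library 1 was below PBS while library 3 was about 2 times PBS. Ndufb8 and Ndufb9 each share exon sequence with another annotated gene on their own strand, and their reads may be split.

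Complex II, which is also the succinate dehydrogenase of the tricarboxylic acid cycle, had Sdha as its farthest member. This flavoprotein, which oxidises succinate, had 491, 493 and 432 CPM with PBS, 383, 399.6 and 329.8 with ATEV, 460.0, 427 and 398 with DNase-ATEV and 504, 472 and 509 with NTEV. The ATEV values were all below those of PBS and of NTEV, and 1 of them was above the lowest DNase-ATEV value. The differences were a log2 fold change of -0.35 ± 0.12 (SE, edgeR adjusted p = 0.101) against PBS and a log2 fold change of -0.42 ± 0.12 (SE, edgeR adjusted p = 0.171) against NTEV. Sdhb, its iron-sulfur partner, was at 173, 170.2 and 171 CPM with PBS and 174, 176 and 179 with ATEV, no overlap but a log2 difference of only 0.04 ± 0.10 (SE). Sdhc was at 172, 196 and 207 with PBS and 166, 185 and 187 with ATEV, and Sdhd was at 338, 316 and 349 with PBS and 224, 325 and 463 with ATEV, both with overlap. Within ATEV, Sdhd spread about 2-fold, whereas Sdhb varied by a few CPM.

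In complex III the large scaffold subunit Uqcrc1 had 417, 351 and 362 CPM with PBS and 314, 341 and 343 with ATEV. Its partner Uqcrc2 had 341, 327 and 347 with PBS and 288, 351 and 431 with ATEV. Uqcrc2 overlapped between the groups, and Uqcrc1 lay below PBS without overlap, at a log2 fold change of -0.18 ± 0.13 (SE, edgeR adjusted p = 0.377). Uqcrfs1 was at 88.9, 89.3 and 91.2 with PBS and 77.4, 85.6 and 96.7 with ATEV, and cytochrome c1, Cyc1, at 329, 269 and 274 with PBS and 211, 242 and 323 with ATEV. Cycs, the mobile cytochrome c that also starts apoptosis when it leaves mitochondria, was at 196, 171 and 144 with PBS, 98.5, 150.1 and 198 with ATEV, 205, 108 and 111 with DNase-ATEV and 193, 99.7 and 148 with NTEV. The ranges of all 4 groups overlapped. The small subunits Uqcrq, at a log2 fold change of 0.43 ± 0.16 (SE, edgeR adjusted p = 0.126), and Uqcr10, at a log2 fold change of 0.34 ± 0.25 (SE, edgeR adjusted p = 0.398), had the largest fold changes of the complex.

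Complex IV had the highest median of the complexes for ATEV over PBS, 0.32, with 11 of 14 tested members above 0. The libraries did not overlap for 2 of the 14, both higher, against 16.3% of all tested genes. Cox4i1 had 520.5, 737 and 994 CPM in the 3 ATEV libraries, against the PBS values given above, so library 1 was below PBS and library 3 well above, at a log2 fold change of 0.40 ± 0.19 (SE, edgeR adjusted p = 0.185). Ndufa4 had 155, 317 and 452 with ATEV, Cox7a2 141, 269 and 394, Cox6c 138, 217 and 296 and Cox7c 121, 188 and 274. In each of these 4 genes ATEV library 1 was below every PBS library, and ATEV libraries 2 and 3 were above every PBS library. Cox5a and Cox5b, which attach to the catalytic core, overlapped between groups, with Cox5a at 179.7, 173 and 179 with PBS and 134, 149.8 and 186 with ATEV. Cox5b was at 177, 178 and 189.9 with PBS and 134, 177 and 238 with ATEV. Cox8a was at 261, 278 and 293 with PBS and 206, 223 and 269 with ATEV, and was called lower once the length trend was removed, with an edgeR adjusted p of 0.0175, against 0.194 without that step. Cox7a2l, a factor that joins complexes III and IV in supercomplexes, had 164, 201 and 236 CPM with PBS, 282, 245 and 276 with ATEV, 178, 248 and 284 with DNase-ATEV and 173, 261 and 241 with NTEV. Its first library was the lowest in the PBS, DNase-ATEV and NTEV groups and the highest with ATEV, and the difference of ATEV from PBS was a log2 fold change of 0.42 ± 0.20 (SE, edgeR adjusted p = 0.192).

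Cox6a2, the heart and skeletal muscle form of subunit 6a, varied most. It had 1.08, 2.96 and 3.19 CPM with PBS, 40.3, 14.3 and 6.04 with ATEV, 2.31, 11.4 and 31.5 with DNase-ATEV and 2.69, 36.5 and 11.4 with NTEV. The highest of the 12 libraries was 37.4 times the lowest, and each treated group held both low and high libraries. ATEV lay above PBS without overlap, at a log2 fold change of 3.08 ± 1.02 (SE, edgeR adjusted p = 0.0915). DNase-ATEV, at a log2 fold change of 2.66 ± 1.01 (SE, edgeR adjusted p = 0.758), and NTEV, at a log2 fold change of 2.81 ± 1.01 (SE, edgeR adjusted p = 0.159), overlapped PBS. Single libraries moved these values: the log2 fold change was 2.09 for ATEV without ATEV library 1, 1.51 for DNase-ATEV without its library 3 and 1.52 for NTEV without its library 2. Cox6a1 stayed at 322, 323 and 352 with PBS and 279, 299 and 342 with ATEV. As a level per kb of coding sequence over 12 libraries, the muscle form was at 46.9 ± 49.2 CPM per kb (SD) and the general form at 920.5. The exons of Cox6a2 overlap those of Itgad on the opposite strand, and Itgad had at most 2 counts in any library.

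**Figure D5:**
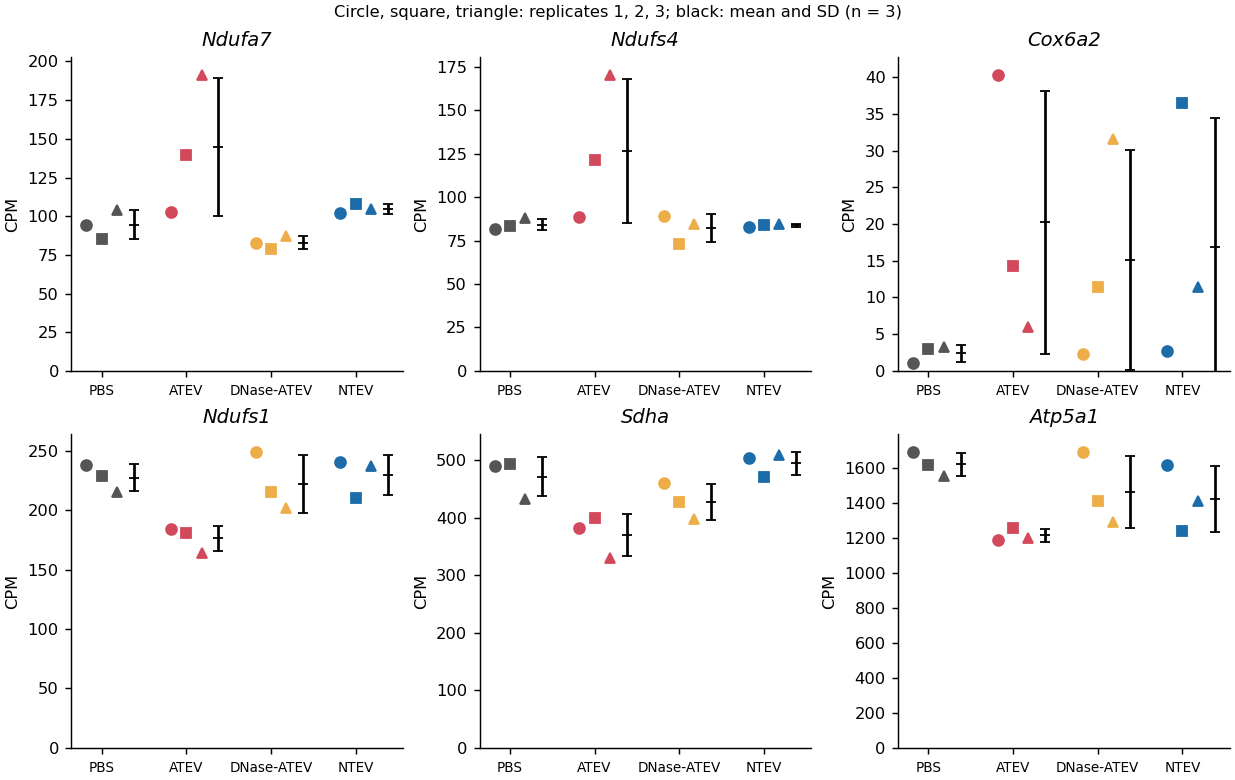
CPM of 6 members in every library by group, with circles, squares and triangles for replicates 1, 2 and 3 and black bars for the mean and SD (n = 3); the axes start at 0 and differ between panels. Ndufs1, Sdha and Atp5a1 lie lower in the ATEV libraries than in the PBS libraries, Ndufa7 and Ndufs4 are highest in ATEV library 3, and Cox6a2 differs widely within every treated group.

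In the ATP synthase 3 of 17 members, all of the head and central stalk, were lower in every ATEV library than in every PBS library. This held for 16.8% of all tested genes, and none of the 3 passed the threshold. Atp5a1 (alpha) had 1690.5, 1620.1 and 1554.2 CPM with PBS, 1187, 1258.4 and 1202 with ATEV, 1693.3, 1410.4 and 1293 with DNase-ATEV and 1618.1, 1242.9 and 1412.3 with NTEV. The ATEV values lay below all PBS and DNase-ATEV values and overlapped NTEV through library 2 of each. The difference from PBS was a log2 fold change of -0.42 ± 0.14 (SE, edgeR adjusted p = 0.0966). Atp5b (beta), which holds the catalytic sites, had 2303.8, 2258.3 and 2084.7 with PBS and 1767.3, 1759.5 and 1803.4 with ATEV, at a log2 fold change of -0.32 ± 0.12 (SE, edgeR adjusted p = 0.131). Atp5d (delta), of the central stalk, had 287, 273 and 279 with PBS and 238, 234 and 229 with ATEV, at a log2 fold change of -0.26 ± 0.11 (SE, edgeR adjusted p = 0.157). The ATEV libraries lay close together for each of the 3.

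The other stalk subunits did not share this pattern. Atp5c1 (gamma) was at 424, 404 and 425 CPM with PBS and 342, 397 and 492 with ATEV. Atp5e (epsilon) was at 137, 138 and 164 with PBS, 132, 233 and 325 with ATEV, 129.6, 135 and 147 with DNase-ATEV and 132, 133 and 148 with NTEV, so ATEV libraries 2 and 3 stood above all others and library 1 among them, at a log2 fold change of 0.66 ± 0.23 (SE, edgeR adjusted p = 0.106) against PBS. Atp5o, which links the head to the outer stalk, was at 329.8, 304 and 333 with PBS and 251, 338 and 473 with ATEV. The membrane ring protein is encoded by several genes. Atp5g1 had 305, 266 and 253 with PBS and 153, 219 and 262 with ATEV. Atp5g2 had 108, 115 and 123 with PBS and 133, 125 and 136 with ATEV. Atp5g3 had 385, 366 and 373 with PBS and 205, 336 and 425 with ATEV. Atp5g2 was above PBS without overlap at a log2 fold change of 0.19 ± 0.11 (SE, edgeR adjusted p = 0.286), and the other two overlapped. Atp5s lay at 5.39, 5.30 and 6.51 CPM with PBS and 6.07, 10.2 and 9.15 with NTEV, at a log2 fold change of 0.56 ± 0.21 (SE, edgeR adjusted p = 0.167).

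In the edgeR fit to all 12 libraries with the filter and no replicate block, Ndufa7 was the only member called in any of the 5 comparisons, and only in ATEV against DNase-ATEV, the comparison that asks what DNase treatment of the vesicles alters. Ndufa7 is an accessory subunit of complex I. It had 94.1, 85.5 and 104 CPM with PBS, 103, 139.7 and 191 with ATEV, 82.7, 78.7 and 87.3 with DNase-ATEV and 102, 108 and 104 with NTEV. All ATEV values were above all DNase-ATEV values, while ATEV library 1 was inside the PBS and NTEV ranges. With SD over 3 libraries, the mean was 144.7 ± 44.4 CPM with ATEV and 82.9 ± 4.31 with DNase-ATEV. This gave a log2 fold change of 0.80 ± 0.18 (SE, edgeR adjusted p = 0.0404). The call did not hold with limma-voom (adjusted p = 0.0537), with only the 2 groups in the edgeR fit (adjusted p = 0.103), or in edgeR fits without ATEV library 2 or 3 or any one of the DNase-ATEV libraries (adjusted p from 0.105 to 0.177). Without ATEV library 1 it was 0.00349. The call held with DESeq2 (adjusted p = 0.00289). It also held in edgeR fits without the filter (0.00219), with the replicate block (0.0331), with DESeq2 size factors (0.0433) and with upper-quartile scaling (0.0449). With the length trend removed it held at a log2 fold change of 0.55 (edgeR adjusted p = 0.0298). Of all tested genes 1.46% were called in this comparison (1.32% higher and 0.143% lower), against 1 of 81 members.

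In the other members of that comparison the outcome turned on single ATEV libraries. The median log2 fold change of ATEV over DNase-ATEV was 0.21 in members and 0.004 over all genes, with 60 members above 0 and 21 below. Without ATEV library 3 the median was -0.01 and no member was called, and without ATEV library 1 it was 0.33 and 17 were called higher (3.05% of all genes in that fit). With the length trend removed from each library the median was 0.02. At an unadjusted p under 0.05 there were 11 members, against 15.2% of all genes. Libraries did not overlap for 2 members higher with ATEV (10.1% of all genes), Ndufa7 and Sdhb, and for 4 lower (10% of all genes), Ndufs1, Atp5a1, Atp5b and Atp5d. Ndufs4, at a log2 fold change of 0.62 ± 0.18 (SE, edgeR adjusted p = 0.134), Atp5e, at a log2 fold change of 0.75 ± 0.23 (SE, edgeR adjusted p = 0.159), and Ndufb8, at a log2 fold change of 0.64 ± 0.24 (SE, edgeR adjusted p = 0.229), had the next largest fold changes of complexes I and V. The 95% interval lay within 2-fold for 71 of 81 members.

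DNase-ATEV against PBS, the comparison for DNase-pretreated vesicles, gave no call among members or among all genes (0% called) by edgeR. At an unadjusted p under 0.05 it gave 1 member, Cox6a2, against 5.96% of all genes, and DESeq2 and limma-voom called no member either. Of all genes, DESeq2 called 0.298% and limma-voom 0%. The median was -0.09 in members and 0.003 over all genes, with 71 of 81 members below 0. Without DNase-ATEV library 1, whose members stood at the PBS level, the median was -0.16, and without library 3 it was -0.06. The interval lay within 2-fold for 80 of 81 members and within 1.5-fold for 58. The libraries did not overlap for 6 members lower (5.68% of all genes), Ndufs7, Ndufs8, Sdhb, Cox6a1, Cox8a and Atp5l, and for 1 higher (7.69%), Atp5s. Cox6a1, at a log2 fold change of -0.22 ± 0.11 (SE, edgeR adjusted p = 0.826), had 281, 291 and 286 CPM, close to each other and below the PBS values. Cycs had the largest fold change of its complex at a log2 fold change of -0.27 ± 0.30 (SE, edgeR adjusted p = 0.853), and Atp5g1 the largest of complex V at a log2 fold change of -0.33 ± 0.24 (SE, edgeR adjusted p = 0.829).

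NTEV against PBS, the comparison for vesicles of non-activated T cells, also gave no call among members, where 2.31% of all genes were called (1.7% higher and 0.611% lower). At an unadjusted p under 0.05 there were 3 members, Ndufv3, Cox6a2 and Atp5s, against 19.1% of all genes, and DESeq2 and limma-voom called none. Of all genes, DESeq2 called 6.23% and limma-voom 1.58%. The median was -0.09 in members and -0.003 over all genes, with 60 of 81 below 0. Ndufv3, an accessory subunit beside the NADH site, had 78.4, 87.6 and 91.7 CPM with PBS and 60.0, 68.5 and 74.2 with NTEV, with no overlap, at a log2 fold change of -0.35 ± 0.12 (SE, edgeR adjusted p = 0.138). It was at 76.3, 75.5 and 77.0 with ATEV. Libraries did not overlap for 3 members higher (12.8% of all genes), among them Ndufv1 and Sdhb, and for 5 lower (11.1%). Without NTEV library 1, Cox6a2 (adjusted p = 0.0358 in edgeR) and Atp5s (0.0251) were called higher, as were 7.94% of all genes. The largest fold changes of complexes II and III were Sdhd, at a log2 fold change of -0.28 ± 0.23 (SE, edgeR adjusted p = 0.52), and Uqcrh, at a log2 fold change of -0.23 ± 0.27 (SE, edgeR adjusted p = 0.661).

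ATEV against NTEV gave no call among members by edgeR, where 0.935% of all genes were called (0.875% higher and 0.0603% lower). Limma-voom also called no member, and 0.912% of all genes. The 2 vesicle types were given at different doses, so source and dose cannot be told apart. The median log2 fold change was 0.21 in members and -0.01 over all genes, with 62 above 0 and 19 below, and it was -0.005 without ATEV library 3 and 0.37 without ATEV library 1, when 15 members were called higher (2.08% of all genes in that fit). With the length trend removed from each library the direction turned, at a median of -0.02. At an unadjusted p under 0.05 there were 15 members, against 13.4% of all genes. DESeq2 called Sdha and Ndufs1 lower, and 0.782% of all genes lower. Libraries did not overlap for 10 members lower with ATEV (7.16% of all genes), among them Sdha, Sdhb, Sdhc, Ndufs1, Ndufv1 and Atp5b, and for 2 higher (8.61%), Ndufs4 and Ndufv3. Ndufs1 had a log2 fold change of -0.38 ± 0.12 (SE, edgeR adjusted p = 0.194), and Cox7a1, at low counts, a log2 fold change of 0.82 ± 0.30 (SE, edgeR adjusted p = 0.276). The comparisons share libraries: PBS serves 3 of the 5 and ATEV serves 3, so values that agree between them are not independent.

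Other genes of the pathway were read from lists of known members. None of 50 tested assembly factors was called in any comparison by edgeR or limma-voom. For ATEV over PBS their median log2 fold change was -0.001, 8 had an unadjusted p under 0.05, against 26.8% of all genes, and DESeq2 called 3, against 11.4% of all genes. Of 27 genes of the tricarboxylic acid cycle and pyruvate entry, 1 rose and 4 fell with ATEV against PBS, against 3.32% and 1.42% of all genes. The median was -0.24. For this comparison 13 of the 27 had an unadjusted p under 0.05, against 26.8% of all genes, and DESeq2 called 6, against 11.4%. Mpc1, a subunit of the mitochondrial pyruvate carrier, rose from 35.6 ± 3.40 to 65.8 ± 13.6 CPM (0.88 ± 0.16 on the log2 scale, adjusted p = 0.00904). Idh2, the NADP-linked isocitrate dehydrogenase, fell from 513 ± 13.9 to 348 ± 5.26 (-0.56 ± 0.11, adjusted p = 0.0137), and Pdk1, a kinase that inhibits pyruvate dehydrogenase, fell from 243 ± 15.5 to 150.4 ± 14.02 (-0.69 ± 0.15, adjusted p = 0.0195). With NTEV against PBS 1 of the 27 fell, Pdk1 (-0.79 ± 0.15, adjusted p = 0.0169), against 0.611% of all genes. Without PBS library 2 the edgeR calls of Mpc1 (adjusted p = 0.0511), Idh2 (0.0711) and Pdk1 (0.0906 with ATEV and 0.0749 with NTEV) were lost, and those of Idh2 and Pdk1 were also lost without other single libraries. None of the 27 was called by edgeR in the other comparisons, in which 4 to 9 had an unadjusted p under 0.05, against 5.96% to 15.2% of all genes. In these DESeq2 called 0 to 3, against 0.298% to 3.31% of all genes.

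Of 24 genes of mitochondrial biogenesis and transcription, Twnk, the helicase that replicates mitochondrial DNA, fell with ATEV against PBS, with means of 156 ± 7.23 and 107 ± 5.05 CPM in PBS and ATEV (-0.55 ± 0.10 on the log2 scale, adjusted p = 0.00694, and 0.064 without PBS library 2). Prkaa2, a catalytic subunit of the energy sensor AMPK, rose with NTEV against PBS, from 21.8 ± 1.56 to 37.7 ± 8.62 (0.79 ± 0.17, adjusted p = 0.0343, and from 0.0751 to 0.153 without any one library other than NTEV library 1). Twnk and Prkaa2 were the only edgeR calls of this list, where 1.42% of all genes fell with ATEV and 1.7% rose with NTEV. Of the 24, 9 had an unadjusted p under 0.05 with ATEV against PBS and 10 with NTEV, against 26.8% and 19.1% of all genes. For NTEV against PBS DESeq2 called 4 of the 24, against 6.23% of all genes. Of 81 tested genes of the mitochondrial ribosome, Mrpl52, of the large subunit, rose with ATEV against PBS (0.90 ± 0.18, adjusted p = 0.0131, and 0.0803 without PBS library 2 or 0.0571 without PBS library 3), and the list's median was -0.06. Mrpl52 was the only gene of the 81 called by edgeR in this comparison, where 3.32% of all genes were called higher. No gene of the 24 tested uncoupling proteins and electron carriers was called in any comparison by edgeR or limma-voom, and for ATEV against PBS 6 had an unadjusted p under 0.05 and DESeq2 called 5, against 26.8% and 11.4% of all genes. Glycolysis had a lower median than the respiratory chain with all 3 preparations against PBS, -0.57 with ATEV, -0.24 with DNase-ATEV and -0.40 with NTEV over 19 genes. By edgeR 1 of the 19 fell with ATEV (1.42% of all genes), 1 with NTEV (0.611%) and 0 with DNase-ATEV (0%). For ATEV against PBS 11 of the 19 had an unadjusted p under 0.05, against 26.8% of all genes. DESeq2 called 6 of the 19, 7 of the 81 mitochondrial ribosome genes and 4 of the 24 biogenesis genes, against 11.4% of all genes. All adjusted p-values of these lists are from the same edgeR fit over all genes.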

How the data were processed

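Messenger RNA of 12 libraries of DC2.4 cells was sequenced after a TruSeq stranded preparation, according to the labels. Build mm9 and the programs Cufflinks 2.1.1, TopHat2 2.0.11, TopHat and bcl2fastq 2.19 appear in the submitters' processing notes, without their roles. For the counter, annotation and strand setting, nothing is given in the sources used here. Of 87 members, 30 overlap another gene's exons, 5 of them on the same strand, and their reads may not be separated. The deposited values are whole-number counts per Ensembl identifier, with no normalization by the authors. GENCODE M21 gave a symbol for 42329 of 42687 identifiers, and 358 had none; M21 also gave transcript lengths (median over basic protein-coding transcripts) and coding lengths. As M21 and the RefSeq promoters belong to a newer build than mm9, no coordinate was read from the counts.

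Groups and replicate numbers came from the titles. In R 4.3.3, edgeR 4.0.16 kept genes with filterByExpr (minimum count 10, minimum total 15), scaled libraries by TMM and fitted 1 quasi-likelihood model with 1 mean per group to all 12 libraries. The 5 contrasts were tested two-sided over 13261 genes with Benjamini-Hochberg adjustment, and a gene was called at an adjusted p under 0.05. Standard errors were derived from F. TMM-scaled CPM gave the levels, and values of single libraries on a log scale add 0.5 CPM. Replicates differed by more than counting noise (chi-square per degree of freedom 14.8 to 131). Scripts were tested on simulated counts. Named members were the 6 with the smallest adjusted p per comparison, the 2 with the largest fold change per complex, a fixed panel, and the extremes of level, and up to 3 genes of each other list; members outside this rule are named where a count of calls, of non-overlapping libraries or of promoter motifs is given, or to describe a role, and were chosen after values were seen. The members and lists were chosen with earlier results of these data known. Alternatives were DESeq2 1.42.0, limma 3.58.1 (voom), DESeq2 size factors, no filter, 2-group fits, the replicate number as a block and each library left out. Upper-quartile scaling and removal of a length trend were added after seeing the data. Mitochondrially encoded genes were not analysed here. B cell markers stayed at or below 0.47 CPM summed and fibroblast markers at or below 4.56. The 95% intervals of fold changes rest on the edgeR standard errors, which include the spread between libraries, and floors for 0 counts cover counting error only.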

Additional observations from a re-analysis of the deposited data

How the results depend on the processing

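Calls among the respiratory chain members changed with the tool and with single libraries, and the cause was not tested. For ATEV against PBS, where edgeR called 0 members, there were 4 without the filter on low counts, 7 with DESeq2, 1 with only the 2 groups compared (Cox6a2), 1 with the transcript-length trend removed (Cox8a, lower), and from 0 to 14 when 1 library was left out, the 14 without ATEV replicate 1. Of all genes, 5.7% were called without the filter, 11.4% with DESeq2 and 9.71% with only the 2 groups. The share was 5.09% with the length trend removed and 6.31% without ATEV replicate 1. For DNase-ATEV against PBS there was 1 without the filter (0.204% of all genes). For NTEV against PBS there was 1 without the filter (3.79% of all genes) and from 0 to 2 with a library left out. The 2, without NTEV replicate 1, were called higher, as were 7.94% of all genes in that fit. For ATEV against DNase-ATEV, where edgeR called 1, there were 3 without the filter, 0 with limma-voom, 0 with only the 2 groups compared, and from 0 to 17 with a library left out. The shares of all genes were 1.71% without the filter, 1.37% with limma-voom and 1.39% with only the 2 groups. Without ATEV replicate 1, which gave the 17, the share was 3.88%. For ATEV against NTEV there was 1 without the filter (1.05% of all genes), 2 with DESeq2 (2.64%) and from 0 to 15 with a library left out. Without ATEV replicate 1, which gave the 15, 2.25% of all genes were called. Upper-quartile scaling and DESeq2 size factors changed no count of members called. The replicate numbers were shared between groups. In none of the 5 comparisons did all 3 same-number pairs correlate above 0.1, so the numbers were not taken to pair the libraries: 6 of 18 same-number pairs did (-0.382 to 0.619), and 3 of 12 libraries correlated best with their own number. Between DNase-ATEV and NTEV, which were not compared, all 3 pairs did (0.619, 0.346 and 0.129), and library 1 of PBS correlated with library 1 of DNase-ATEV (0.44) and of NTEV (0.519). With the replicate block, 3 members were called for ATEV against PBS (Ndufa6 and Ndufa7 higher, Ndufs1 lower; 10.9% of all genes were called, against 4.74% without it), and the counts of the other 4 comparisons did not change. The median log2 fold change of members over the fits with a library left out ran from -0.08 to 0.26 for ATEV against PBS, -0.16 to -0.06 for DNase-ATEV against PBS, -0.12 to -0.03 for NTEV against PBS, -0.01 to 0.33 for ATEV against DNase-ATEV and -0.005 to 0.37 for ATEV against NTEV. With the length trend removed it was -0.05, -0.10, -0.04, 0.02 and -0.02 in that order. The NTEV against PBS call of Prkaa2 was also lost with limma-voom (adjusted p = 0.0535), only the 2 groups (0.108) and the replicate block (0.0512), and that of Pdk1 with only the 2 groups (0.0788). Low counts limit Cox7a1, Atp5s and Ndufb2, at 2.59 to 12.4 CPM.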
